A study of Mus musculus with 6 samples.

Results

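WNT signalling genes were examined in bone marrow mesenchymal stromal cells of Nlrp3 knockout mice, set against the same cells of wild-type (WT) mice. The members were taken by gene symbol, and earlier results of these data were known when they were chosen. They are the WNT ligands, the frizzled receptors, the secreted frizzled-related proteins and the dickkopf proteins, together with 18 named genes among co-receptors, R-spondins, other secreted inhibitors, and feedback and nuclear genes of the pathway. This gave 55 of the 55401 genes in the deposited table, namely 19 ligands, 10 frizzled receptors, 5 co-receptors, 10 secreted inhibitors, 3 R-spondins and 8 feedback and nuclear genes. The 3 Nlrp3 knockout and 3 WT cultures were grown from femoral marrow of C57/B6J mice, and all 6 received lipopolysaccharide (LPS), a bacterial cell wall component sensed by TLR4, at 3 µg/mL over 24 h, so that no culture without LPS enters any value. Nlrp3 encodes the sensor of an inflammasome, the complex that activates caspase-1. In the titles the replicates of either genotype carry Day1, Day2 and Day3, whereas the treatment field reads Day 1 throughout, and what the day counts is not stated. The labels name neither the knockout allele nor the animals or cultures behind each library, and every p-value therefore reflects no more than the variation among these 6 libraries, which may be technical.

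WNT proteins are secreted, lipid-modified ligands that bind frizzled receptors, and in the canonical branch they also engage Lrp5 or Lrp6. This halts the Axin-containing complex that marks β-catenin for destruction, and β-catenin then acts in the nucleus with TCF and LEF factors, while other ligands signal through Ror and Ryk receptors without β-catenin. In bone marrow stroma, canonical signalling is known for favouring the osteoblast over the adipocyte fate, and LRP5 was identified through human disorders of low and high bone mass.

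Levels are given as FPKM (fragments per kilobase of transcript after correction for library depth), a unit that corrects for gene length. Libraries held 58.4 to 63.5 M estimated counts in the knockout and 53.2 to 66.3 M in WT (M, 1e6), about 13.3 to 16.6 M fragments over the 6. Nlrp3 (chr11:59541568-59566956, GRCm38) was at 0 estimated counts in the 3 knockout libraries, against 730, 502 and 444 in the WT libraries, at least 142-fold lower when the 3 knockout libraries together are set to a floor of 3 fragments (12 estimated counts). An exact two-sided permutation test of its FPKM gave p = 0.1, the smallest that 3 against 3 libraries allow. The marker lists of other cells also differed between the genotypes. All 19 tested macrophage markers of 22 were higher in the knockout (Aif1 among them passed the filter described next through the knockout alone), with a summed level of 1710.2 to 1959.0 FPKM in the knockout and 732.7 to 832.4 FPKM in WT, and none of the 22 was at 0 in all 6 libraries. Of 16 tested stromal markers of 17, 3 were higher (Nt5e again through the knockout alone) and 10 lower in the knockout, with a summed level of 2772.1 to 2946.9 FPKM in the knockout and 3706.6 to 4035.9 FPKM in WT. Cxcl12 and Twist1 were also higher, and Cd44, Itgb1 and Vim did not pass. Beside these marker counts, 10.4% of all tested genes were higher and 9.2% lower in the knockout. Pdgfra, a receptor that defines marrow stroma and was among the stromal markers that fell most, averaged 2.96 ± 0.23 FPKM in the knockout and 30.2 ± 1.7 FPKM in WT (SD, n = 3 each). The part that the cell makeup has in the WNT values below was not tested, and in bulk RNA fewer cells of a type and less RNA per cell cannot be told apart.

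Of the 55 genes, 23 reached 1 FPKM in at least 3 of the 6 libraries and were tested with limma on log2(FPKM + 1), with Benjamini-Hochberg adjustment over all 12136 tested genes and a threshold of 0.05. In this test 7 WNT genes were higher in the knockout and 6 lower, while 10 did not pass. Over all tested genes, 10.4% were higher and 9.2% lower, 19.6% in either direction. Of the 7 higher genes, 4 (Wnt10b, Wnt5b, Tcf7 and Znrf3) reached the filter through the knockout libraries alone and so had to differ. The remaining 19 tested genes held 3 higher and 6 lower ones. With a filter on the mean of all 6 libraries (at least 0.5 FPKM), which does not look at genotype, 27 WNT genes were tested, of which 8 were higher (29.6%) and 7 lower (25.9%), against 9.73% higher and 8.58% lower of 13625 genes. The median log2 difference of the 23 tested genes was 0.04, and its median size regardless of sign was 0.55, while all tested genes had a median of 0.01 and a median size of 0.17. The WNT genes thus moved in both directions. Of the 23 tested WNT genes, 10 were higher and 7 lower in the knockout without overlap of FPKM values, against 18.8% and 18.0% of all tested genes. For the 4 genes that reached the filter through the knockout alone, the lack of overlap followed from the filter. The plot of called WNT genes by library shows the levels that the following paragraphs take up by role.

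**Figure D1:**
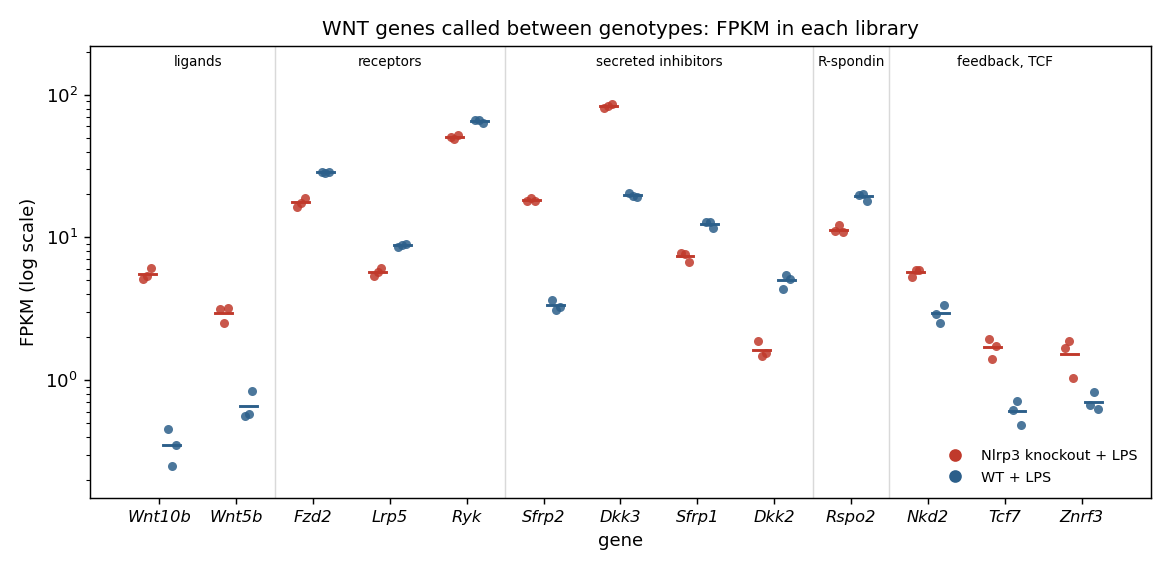
FPKM on a log scale in each library (points; bars are means) of the 13 WNT genes that passed the limma test, 3 Nlrp3 knockout libraries with LPS in red to the left of 3 WT libraries with LPS in blue, by role. In each of the 13 genes all 3 knockout points lie on 1 side of all 3 WT points, with the widest gap for Wnt10b, at 5.15 to 6.06 FPKM in the knockout and 0.25 to 0.45 FPKM in WT. Genes chosen by this test tend to be separated, and for Wnt10b, Wnt5b, Tcf7 and Znrf3 the filter fixed it. Over all tested genes, 36.7% did not overlap.

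Among the ligands, Wnt10b and Wnt5b rose and Wnt5a, the most abundant ligand of the WT cultures, did not pass the test. Wnt10b (chr15:98770712-98778150) encodes a canonical ligand that in mouse mesenchymal progenitors promotes the osteoblast fate and holds back the adipocyte fate. It had 5.15, 5.38 and 6.06 FPKM in the knockout libraries, against 0.45, 0.25 and 0.35 FPKM in the WT libraries. All knockout libraries were far above all WT libraries, and the spread within a genotype was small beside the gap. The mean level was 15.8-fold higher in the knockout (5.53 ± 0.47 FPKM in the knockout, 0.35 ± 0.10 FPKM in WT, SD, n = 3 each), with a limma log2 difference of 2.27 ± 0.10 (SE, adjusted p = 2.54e-05). Since 1 is added before the logarithm, this difference understates the change of a gene that is so low in WT, and edgeR on the estimated counts gave a log2 fold change of 3.97 (adjusted p = 5.44e-05). These values rest on 1236, 1183 and 1356 estimated counts in the knockout and 100, 62 and 70 in WT. Wnt10b reached the filter through the knockout alone, and with the filter on the mean its limma adjusted p was 3.04e-05. Wnt1, the ligand gene 11.7 kb away on chromosome 15, stayed at or below 0.11 FPKM in every library.

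Wnt5b (chr6:119432531-119544347) encodes a ligand known mainly for signalling without β-catenin. It had 3.14, 2.52 and 3.18 FPKM in the knockout libraries and 0.56, 0.58 and 0.84 FPKM in the WT libraries. The lowest knockout library lay well above the highest WT library. This was a 4.46-fold higher mean level, with a log2 difference of 1.25 ± 0.11 (SE, limma adjusted p = 0.000489). Wnt5b too reached the filter through the knockout alone, and with the filter on the mean its limma adjusted p was 0.000581. Its close paralogue Wnt5a, the best known ligand of Ror2, had 3.56, 3.63 and 2.89 FPKM in the knockout libraries and 3.61, 2.96 and 3.15 FPKM in the WT libraries. The genotypes overlapped, and the log2 difference of 0.04 had a 95% interval of -0.21 to 0.29 (limma adjusted p = 0.841). Wnt9a, a ligand expressed at forming joints in the mouse, had 1.68, 1.89 and 2.09 FPKM in the knockout libraries and 1.23, 1.57 and 1.22 FPKM in the WT libraries. Its values did not overlap, but it did not pass the test (log2 difference 0.30, 95% interval 0.06 to 0.54, limma adjusted p = 0.0867). Wnt9a lies 0.208 Mb from Nlrp3 on chromosome 11, which holds 9 of the 55 genes. Of the chromosome 11 genes that passed a test, Tcf7 lies 7.26 Mb, Fzd2 43.0 Mb, Axin2 49.4 Mb and Znrf3 54.1 Mb from Nlrp3, and the part of this position in their values was not tested.

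Of the 15 ligands below the filter, Wnt11 had the highest level and was higher in the knockout. It encodes a ligand known from mouse kidney branching and from cell movements in frog and zebrafish gastrulae. Wnt11 (chr7:98835112-98853811) had 0.96, 0.95 and 1.13 FPKM in the knockout libraries and 0.27, 0.23 and 0.29 FPKM in the WT libraries, a 3.85-fold higher mean without overlap. The quasi-likelihood test of edgeR, which called 8.48% of 17479 genes higher and 8.12% lower in the knockout, 16.6% in all, gave a log2 fold change of 1.92 (adjusted p = 0.000708). Without any 1 library its adjusted p was at most 0.00465. Wnt4, needed for kidney tubules in the mouse, is named after its values were seen. It reached 0.12, 0.07 and 0.11 FPKM in the knockout libraries and 0, 0.01 and 0.02 FPKM in the WT libraries. Its edgeR adjusted p of 0.0412 passed the threshold, but the call was lost whichever of the 6 libraries was left out (adjusted p = 0.0589 to 0.147) and without a filter on low counts (0.0811). Wnt6, Wnt2b and Wnt10a were between 0.08 and 0.52 FPKM in the knockout libraries and at most 0.20 FPKM in the WT libraries, and did not pass (edgeR adjusted p = 0.184, 0.313 and 0.205). Wnt1, Wnt2, Wnt7b, Wnt8a and Wnt16 stayed at or below 0.11 FPKM, and Wnt3, Wnt3a, Wnt7a, Wnt8b and Wnt9b were at 0 in all 6 libraries.

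The windows from 250 bases before to 50 bases after the transcription start (RefSeq, GRCm38.p6, in the direction of transcription) are given here for Wnt10b, the ligand with the widest gap among the tested genes, and for Wnt11, the most abundant ligand below the filter. They span chr15:98778101-98778400 (minus strand) and chr7:98834862-98835161 (plus strand). Capitals mark the words CTTTGAA and CTTTGAT, or TTCAAAG and ATCAAAG on the other strand, which are forms of the TCF and LEF recognition sequence.
Wnt10b: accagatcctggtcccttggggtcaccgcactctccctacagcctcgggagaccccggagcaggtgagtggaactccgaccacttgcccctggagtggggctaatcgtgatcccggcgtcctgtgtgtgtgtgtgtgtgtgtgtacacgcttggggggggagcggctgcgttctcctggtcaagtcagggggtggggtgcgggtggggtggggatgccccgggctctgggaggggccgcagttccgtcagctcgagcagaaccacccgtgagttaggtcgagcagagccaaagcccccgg
Wnt11: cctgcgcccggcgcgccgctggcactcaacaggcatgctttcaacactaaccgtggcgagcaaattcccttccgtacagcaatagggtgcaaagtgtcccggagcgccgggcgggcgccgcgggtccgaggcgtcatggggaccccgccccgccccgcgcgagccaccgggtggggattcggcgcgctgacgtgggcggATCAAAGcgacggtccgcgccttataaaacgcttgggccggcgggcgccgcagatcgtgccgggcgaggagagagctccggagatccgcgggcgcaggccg
The Wnt10b window held no such word, and the Wnt11 window held ATCAAAG with its first base 51 bases before the start. The table gave 45 windows for 37 of the 55 genes, of which 3 windows held a word (6.67%), against 2842 of 32851 windows of all genes (8.65%). Besides Wnt11 these were a window of Wnt5b and the window of Dkk1. A word in a window describes its letters and is no measure of binding.

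Summed over the 19 ligand genes, the level was 15.25, 15.1 and 16.36 FPKM in the knockout libraries and 6.44, 5.8 and 6.23 FPKM in the WT libraries. Wnt10b made up 33.8 to 37.0% of this sum in the knockout and 4.3 to 7.0% in WT. Wnt5a, at a like absolute level in both, made up 17.7 to 24.0% in the knockout and 50.6 to 56.1% in WT. The leading ligand transcript by level was therefore Wnt10b in all 3 knockout libraries and Wnt5a in all 3 WT libraries, as the plot of summed levels shows.

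**Figure D2:**
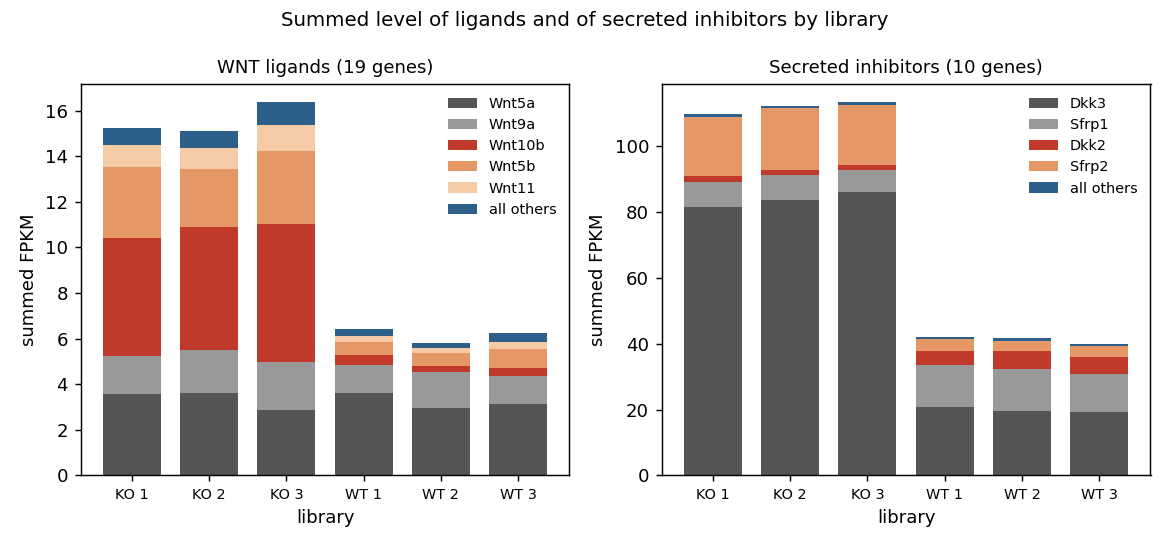
Summed FPKM of the 19 ligand genes (left) and the 10 secreted inhibitor genes (right), stacked by gene, in each of the 3 Nlrp3 knockout (KO) and 3 WT libraries, all with LPS. The ligand stack is taller in the knockout through the Wnt10b, Wnt5b and Wnt11 segments while the Wnt5a segment is of like height, and the inhibitor stack, at 109.81 to 113.3 FPKM in the knockout and 39.87 to 42.08 FPKM in WT, is taller through Dkk3 and Sfrp2. Dkk3, not known as a general antagonist of Lrp5 and Lrp6, makes up 74.1 to 76.0% of the knockout inhibitor stack.

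Of the frizzled receptors, Fzd2, the most abundant, fell and the other 5 tested did not pass. Fzd2 (chr11:102604396-102608058), a receptor for both canonical ligands and Wnt5a, had 16.44, 17.38 and 19.04 FPKM in the knockout libraries and 28.66, 28.34 and 28.82 FPKM in the WT libraries. The WT libraries were nearly equal and all above the knockout libraries. The mean level was 1.62-fold lower in the knockout, with a log2 difference of -0.67 ± 0.07 (SE, limma adjusted p = 0.000966). Fzd7 averaged 13.8 ± 0.6 FPKM in the knockout and 13.5 ± 1.0 FPKM in WT (SD, n = 3 each), and its 95% interval for the log2 difference was -0.14 to 0.22 (limma adjusted p = 0.793). Fzd1 had 11.69, 13.26 and 12.2 FPKM in the knockout libraries and 14.61, 15.45 and 14.34 FPKM in the WT libraries. Its knockout values were all below its WT values, but it missed the threshold (log2 difference -0.24, 95% interval -0.41 to -0.07, limma adjusted p = 0.0627) and passed only without knockout replicate 2 (adjusted p = 0.0472). Fzd8, Fzd5 and Fzd6 averaged 2.48 to 2.72 FPKM in the knockout and 2.25 to 2.79 FPKM in WT, with log2 differences of 0.18, 0.03 and -0.13 (limma adjusted p = 0.19, 0.85 and 0.448). Below the filter, Fzd3 and Fzd4 stayed between 0.46 and 0.86 FPKM in the knockout and 0.46 and 0.97 FPKM in WT (edgeR adjusted p = 0.704 and 0.258). Fzd9 was at or below 0.19 FPKM (edgeR adjusted p = 0.236), and Fzd10 was at 0 throughout. Summed over the 10 frizzled genes, the level was 49.92 to 55.12 FPKM in the knockout and 64.8 to 67.34 FPKM in WT.

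Among the co-receptors, Lrp5 and Ryk fell and Lrp6 and Ror2 did not pass. Lrp5 (chr19:3584828-3686564), the canonical co-receptor tied to bone mass, had 5.38, 5.74 and 6.08 FPKM in the knockout libraries and 8.57, 8.87 and 9.04 FPKM in the WT libraries. The genotypes were well separated. Its mean was 1.54-fold lower in the knockout, with a log2 difference of -0.55 ± 0.07 (SE, limma adjusted p = 0.00224). Ryk (chr9:102834917-102907953), a receptor with a kinase-like domain that lacks catalytic activity, was the most abundant receptor gene. It had 50.78, 48.96 and 51.82 FPKM in the knockout libraries and 66.29, 67.04 and 63.05 FPKM in the WT libraries. No knockout value reached the WT range, and the mean was 1.3-fold lower in the knockout (log2 difference -0.37 ± 0.06, SE, limma adjusted p = 0.00691). Lrp6, the close relative of Lrp5, had 5.79, 6.68 and 4.26 FPKM in the knockout libraries and 6.76, 7.89 and 6.14 FPKM in the WT libraries, with overlap. Its 95% interval for the log2 difference was -0.66 to 0.10 (limma adjusted p = 0.284). Whether Lrp5 and Lrp6 differ in their response was not tested.

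The Ror receptors bind Wnt5a and signal without β-catenin. Ror2 had 6.01, 6.08 and 6.62 FPKM in the knockout libraries and 5.48, 4.67 and 5.03 FPKM in the WT libraries, without overlap but short of the threshold (log2 difference 0.26, 95% interval 0.06 to 0.45, limma adjusted p = 0.0752). Ror1, below the filter, had 0.49, 0.46 and 0.49 FPKM in the knockout libraries and 0.08, 0.13 and 0.22 FPKM in the WT libraries. The knockout libraries were all above the WT libraries, and edgeR gave a log2 fold change of 1.74 (adjusted p = 0.0182), which was lost without knockout replicate 1 (adjusted p = 0.0571) or WT replicate 2 (0.0692). Summed over the 5 co-receptor genes, the level was 67.92 to 69.27 FPKM in the knockout and 83.48 to 88.6 FPKM in WT.

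The secreted inhibitors held the most abundant WNT gene of the knockout libraries, Dkk3, and moved in both directions. All 4 tested genes passed, with Dkk3 and Sfrp2 higher and Sfrp1 and Dkk2 lower in the knockout. Dkk3 (chr7:112116017-112159057) encodes a divergent dickkopf protein that, unlike Dkk1, is not known as a general antagonist of Lrp5 and Lrp6. It had 81.41, 83.57 and 86.06 FPKM in the knockout libraries and 20.63, 19.47 and 19.23 FPKM in the WT libraries. The values within each genotype lay close together and the groups far apart. The mean level was 4.23-fold higher in the knockout, with a log2 difference of 2.03 ± 0.06 (SE, limma adjusted p = 8.38e-06). Sfrp2 (chr3:83766321-83774316) encodes a secreted protein with a frizzled-like domain that binds WNT ligands. It had 17.92, 18.8 and 18.12 FPKM in the knockout libraries and 3.63, 3.1 and 3.27 FPKM in the WT libraries. Again the groups were far apart, with a 5.48-fold higher mean in the knockout and a log2 difference of 2.16 ± 0.07 (SE, limma adjusted p = 1.28e-05).

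Sfrp1, which carries the same kind of domain, moved the other way. Sfrp1 (chr8:23411502-23449632) had 7.74, 7.67 and 6.76 FPKM in the knockout libraries and 12.76, 12.86 and 11.62 FPKM in the WT libraries. All knockout values were below all WT values, and the mean was 1.68-fold lower (log2 difference -0.68 ± 0.08, SE, limma adjusted p = 0.0015). In the WT libraries Sfrp1 was thus the more abundant of this pair, and in the knockout libraries Sfrp2 was. Dkk2 (chr3:132085292-132180304), a ligand of Lrp5 and Lrp6 that can block them, had 1.89, 1.48 and 1.54 FPKM in the knockout libraries and 4.38, 5.48 and 5.14 FPKM in the WT libraries. The genotypes were clearly separated, with a 3.05-fold lower mean in the knockout and a log2 difference of -1.19 ± 0.11 (SE, limma adjusted p = 0.000482).

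Dkk1, the prototype antagonist of Lrp5 and Lrp6 and itself a known target of canonical signalling, is named after its values were seen, since it was below the filter and at 0 in 1 genotype. It had 0 estimated counts in the 3 knockout libraries, against 33, 36 and 26 in the WT libraries (0.21, 0.2 and 0.18 FPKM). With library size corrected for and the same floor over the 3 knockout libraries, its level there was lower by at least 8.03-fold, and edgeR gave an adjusted p of 0.00478, at most 0.0335 without any 1 library. With the counts divided by 4, to bring them to fragments, it was too low to be tested. Its window (chr19:30549447-30549746, minus strand) is shown because it holds the word CTTTGAA, in capitals, with its first base 117 bases before the RefSeq start.
Dkk1: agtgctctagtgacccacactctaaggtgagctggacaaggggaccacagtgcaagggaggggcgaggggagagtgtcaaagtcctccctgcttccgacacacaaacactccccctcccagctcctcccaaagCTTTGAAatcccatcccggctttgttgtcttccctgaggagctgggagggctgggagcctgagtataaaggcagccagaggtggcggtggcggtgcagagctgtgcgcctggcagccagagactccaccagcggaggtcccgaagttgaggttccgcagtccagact
Frzb, another secreted protein with a frizzled-like domain, had 0.35, 0.35 and 0.41 FPKM in the knockout libraries and 0.17, 0.19 and 0.21 FPKM in the WT libraries and did not pass (edgeR adjusted p = 0.0599). Wif1, which binds WNT ligands directly, and Sfrp4 stayed at or below 0.27 FPKM (edgeR adjusted p = 0.305 and 0.998), and Dkk4 and Sfrp5 were at 0 in all 6 libraries. Of the summed inhibitor level, Dkk3 made up 74.1 to 76.0% in the knockout and 46.8 to 49.0% in WT, and Sfrp1 6.0 to 7.0% in the knockout and 29.1 to 30.9% in WT.

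**Figure D3:**
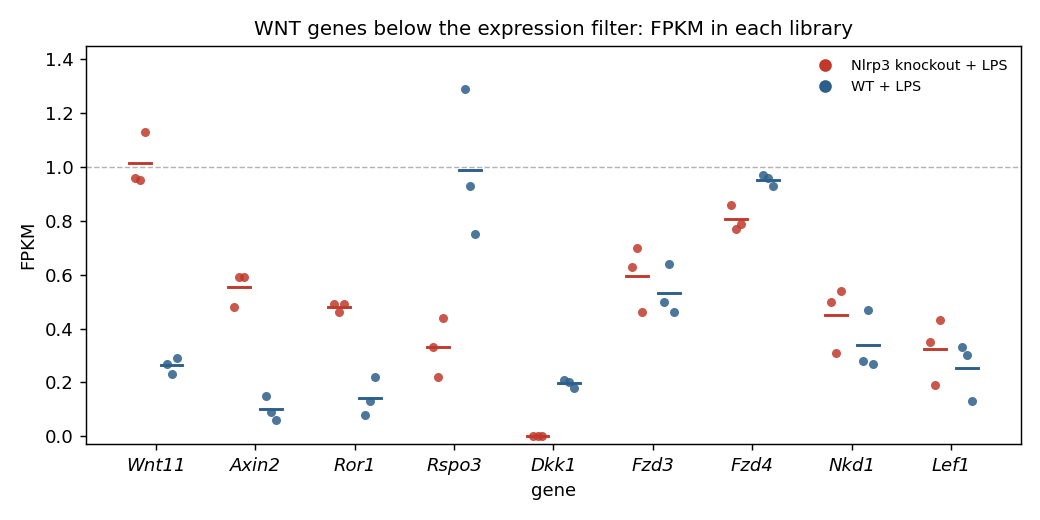
FPKM in each library (points; bars are means) of 9 WNT genes that stayed below the expression filter, 3 Nlrp3 knockout libraries with LPS in red to the left of 3 WT libraries with LPS in blue; the dashed line marks 1 FPKM. Wnt11, Axin2 and Ror1 lie higher in the knockout and Rspo3 and Dkk1 lower, Fzd4 is slightly lower in the knockout without passing a test, and Fzd3, Nkd1 and Lef1 overlap.

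R-spondins are secreted proteins that bind Lgr receptors and keep frizzled receptors at the cell surface by removing Znrf3 and Rnf43. Rspo2 (chr15:43020794-43170826), which accounted for 95.3 to 97.0% of the R-spondin level in the knockout and 93.7 to 96.0% in WT, had 11.04, 12.17 and 10.85 FPKM in the knockout libraries and 19.86, 20.3 and 17.91 FPKM in the WT libraries. Every knockout library was below every WT library. The mean was 1.70-fold lower in the knockout, with a log2 difference of -0.72 ± 0.08 (SE, limma adjusted p = 0.0011). Rspo3, below the filter, had 0.33, 0.22 and 0.44 FPKM in the knockout libraries and 1.29, 0.93 and 0.75 FPKM in the WT libraries. It was lower in the knockout without overlap, with an edgeR log2 fold change of -1.58 (adjusted p = 0.0162), a call that was lost without knockout replicate 1 (adjusted p = 0.0637) or WT replicate 1 (0.0686). Rspo1 was at or below 0.22 FPKM and did not pass (edgeR adjusted p = 0.302).

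The feedback and nuclear genes held 3 higher and 0 lower ones among 4 tested, of which Tcf7 and Znrf3 passed the filter through the knockout alone. Nkd2 (chr13:73818534-73847631), a Dishevelled-binding protein of the naked cuticle family, had 5.3, 5.91 and 5.94 FPKM in the knockout libraries and 2.91, 2.53 and 3.35 FPKM in the WT libraries. The groups did not overlap, and the mean was 1.95-fold higher in the knockout (log2 difference 0.78 ± 0.10, SE, limma adjusted p = 0.00224). Tcf7 (chr11:52252371-52283331), which encodes the transcription factor TCF1, had 1.95, 1.4 and 1.73 FPKM in the knockout libraries and 0.62, 0.71 and 0.48 FPKM in the WT libraries. All knockout values were above all WT values, with a 2.81-fold higher mean (log2 difference 0.75 ± 0.11, SE, limma adjusted p = 0.00414). With the filter on the mean, the limma adjusted p of Tcf7 was 0.00474. Znrf3, a ubiquitin ligase that removes frizzled receptors and is itself a known target of β-catenin, had 1.67, 1.87 and 1.04 FPKM in the knockout libraries and 0.67, 0.82 and 0.63 FPKM in the WT libraries. Its knockout replicate 3 lay close to the WT libraries. The log2 difference of 0.55 ± 0.14 (SE, limma adjusted p = 0.039) had the highest adjusted p of the 13 calls, and the call was lost when knockout replicate 1 (adjusted p = 0.126) or 2 (0.1) or WT replicate 1 (0.118), 2 (0.0779) or 3 (0.121) was left out. With the filter on the mean, the limma adjusted p of Znrf3 was 0.042.

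Axin2, a widely used reporter gene of canonical signalling, was below the filter but higher in the knockout, while its constitutive relative Axin1 did not pass. Axin2 (chr11:108920349-108950783) had 0.48, 0.59 and 0.59 FPKM in the knockout libraries and 0.15, 0.09 and 0.06 FPKM in the WT libraries. The gap between the genotypes was wider than the spread within either. The mean was 5.53-fold higher in the knockout, and edgeR gave a log2 fold change of 2.43 (adjusted p = 0.00268, at most 0.016 without any 1 library). These levels rest on 187, 208 and 216 estimated counts in the knockout and 53, 38 and 20 in WT. Its window (chr11:108920099-108920398, plus strand) is shown because Axin2 is a known β-catenin target, and these 300 bases held none of the words searched.
Axin2: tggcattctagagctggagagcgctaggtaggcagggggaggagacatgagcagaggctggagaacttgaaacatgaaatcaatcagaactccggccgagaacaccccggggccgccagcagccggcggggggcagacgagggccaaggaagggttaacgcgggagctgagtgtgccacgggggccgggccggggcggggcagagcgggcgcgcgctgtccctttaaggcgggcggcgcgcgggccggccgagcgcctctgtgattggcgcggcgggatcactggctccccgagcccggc
Axin1, a scaffold of the destruction complex, had 17.72, 16.97 and 18.69 FPKM in the knockout libraries and 18.19, 17.63 and 20.37 FPKM in the WT libraries. The genotypes overlapped, and the 95% interval of the log2 difference was -0.25 to 0.12 (limma adjusted p = 0.604). Lef1, Nkd1 and Rnf43 were low and overlapped between genotypes, at 0.03 to 0.54 FPKM in the knockout and 0 to 0.47 FPKM in WT (edgeR adjusted p = 0.689, 0.513 and 0.503). The edgeR test took in 42 of the 55 genes, with 11 higher and 8 lower in the knockout. Over all 17479 genes of that test, 8.48% were higher and 8.12% lower. The calls were the 13 of limma in the same direction, Wnt11, Wnt4, Ror1 and Axin2 higher, and Rspo3 and Dkk1 lower. Leaving out single libraries raised the edgeR adjusted p of Ryk up to 0.0569 and that of Znrf3 up to 0.0696, past the threshold.

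**Figure D4:**
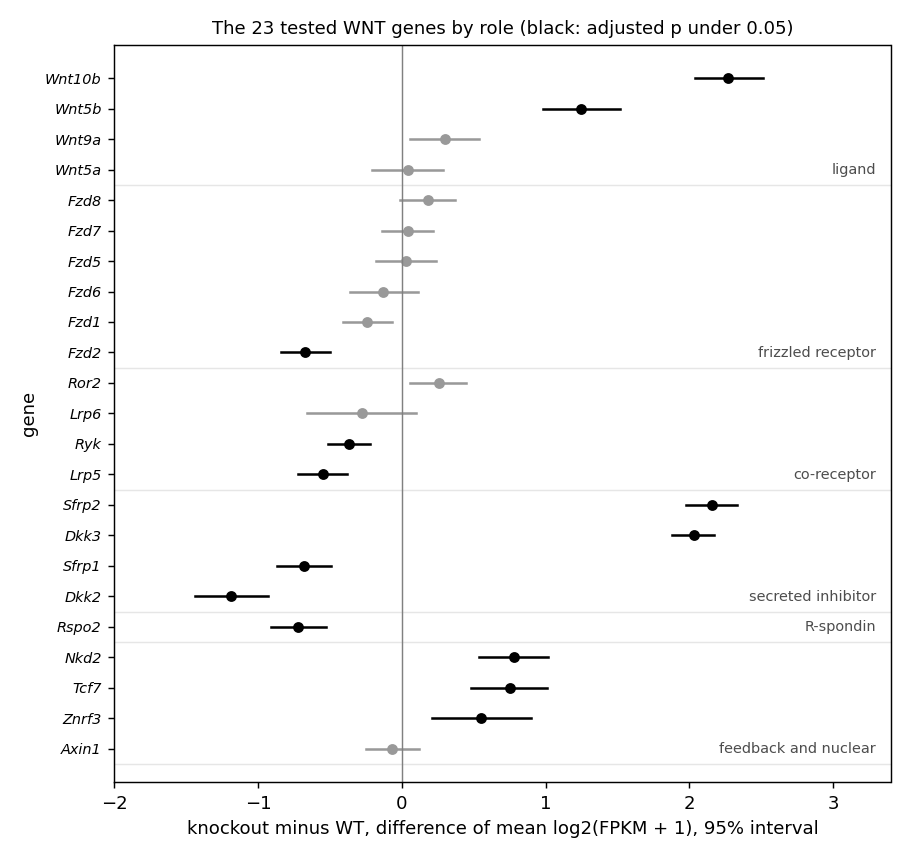
Difference of the mean log2(FPKM + 1), knockout minus WT, with its 95% interval for the 23 tested WNT genes, grouped by role; black marks an adjusted p under 0.05 in limma, grey the rest (n = 3 libraries each). Wnt10b, Sfrp2 and Dkk3 lie beyond 2 and Dkk2 at -1.19, while the intervals of Wnt5a, Fzd7, Fzd5 and Axin1 span 0.

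Genes that work with these members were read from the same limma test. Across 107 further genes of the pathway, 75 were tested, of which 15 were higher and 16 lower in the knockout. Leaving out single libraries moved these counts to between 9 and 18 higher (9 without knockout replicate 1, WT replicate 2 or WT replicate 3) and between 10 and 15 lower (10 without WT replicate 1). Lrp4, Pygo1 and Plcb1 reached the filter through the knockout libraries alone and Prickle1 through the WT libraries alone, so that these 4 had to differ. A list of 7 genes held those for WNT secretion, the R-spondin receptors and the agonists Rspo4 and Ndp. Of these, 3 were tested, with 2 higher and 1 lower (median log2 difference 0.28). Porcn, which attaches the lipid that WNT ligands need for secretion, averaged 3.58 ± 0.22 FPKM in the knockout and 1.51 ± 0.04 FPKM in WT (log2 difference 0.86, limma adjusted p = 0.000455), and Wls, the carrier of WNT ligands to the cell surface, 24.8 ± 1.1 FPKM in the knockout and 20.3 ± 0.5 FPKM in WT (0.28, limma adjusted p = 0.0246; SD, n = 3 each here and in what follows). Lgr4, an R-spondin receptor, averaged 2.96 ± 0.42 FPKM in the knockout and 4.90 ± 0.30 FPKM in WT (-0.58, limma adjusted p = 0.00784). Ligand processing genes and Lgr4 thus had opposite signs. The other R-spondin receptor genes, Lgr5 and Lgr6, were below the filter and not tested. They averaged 0.367 and 0.743 FPKM in the knockout and 0.127 and 0.207 FPKM in WT, the reverse of Lgr4.

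Of 12 genes grouped as other secreted or surface inhibitors, not all of them established inhibitors, 5 were tested, with 1 higher and 2 lower (median -0.17). Lrp4, a receptor of sclerostin that dampens WNT signalling in bone and the only higher gene here, is among those 4, at 2.96 ± 0.23 FPKM in the knockout, against 0.903 ± 0.047 FPKM in WT (limma adjusted p = 0.000268, and 0.00032 with the filter on the mean of all libraries). Igfbp4, an IGF-binding protein that can also bind frizzled and Lrp6, had 13.12, 13.27 and 35.04 FPKM in the knockout libraries and 62.07, 60.51 and 57.36 FPKM in the WT libraries (log2 difference -1.65, limma adjusted p = 0.0196). Knockout replicate 3 stood between the rest of its genotype and WT. Gpc4, a heparan sulphate proteoglycan of the cell surface, averaged 57.9 ± 2.7 FPKM in the knockout and 78.5 ± 1.8 FPKM in WT (limma adjusted p = 0.00426). Sost and Kremen2 were at 0 in all 6 libraries.

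Of 26 genes of the destruction complex and its regulators, 23 were tested, and 2 were higher, 4 lower and 17 not called (median -0.04). Ctnnb1, which encodes β-catenin, averaged 96.2 ± 11.7 FPKM in the knockout and 101.5 ± 12.7 FPKM in WT and did not pass (log2 difference -0.08, limma adjusted p = 0.739). The Dishevelled-binding genes Dact1, Dact2 and Dact3 all fell, with log2 differences of -1.11, -0.78 and -0.74 (limma adjusted p = 0.000771, 0.00182 and 0.00923). Dact1, for example, averaged 2.31 ± 0.28 FPKM in the knockout and 6.15 ± 0.79 FPKM in WT. Csnk1e, a casein kinase that acts on Dishevelled, and Ctnnbip1, which blocks β-catenin from TCF factors, rose by 0.26 and 0.33 on the log2 scale (limma adjusted p = 0.03 and 0.043).

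Of 12 nuclear cofactors, all were tested, with 1 higher and 4 lower (median -0.26). Pygo1, a β-catenin coactivator subunit, averaged 1.33 ± 0.12 FPKM in the knockout and 0.53 ± 0.11 FPKM in WT and passed the filter through the knockout alone (limma adjusted p = 0.00462, and 0.00532 with the filter on the mean). The largest decreases were those of Bcl9l, another β-catenin coactivator, of Tle2, a corepressor, and of Tcf7l1, a TCF factor known as a repressor, with log2 differences of -0.69, -0.57 and -0.49 (limma adjusted p = 0.0251, 0.0052 and 0.0121). Both coactivators and corepressors were thus among the genes that changed.

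Of 25 genes of the branch without β-catenin, 18 were tested, with 4 higher and 3 lower (median -0.0). The phospholipase genes Plcb4 and Plcb1 rose by 1.36 and 0.70 on the log2 scale (limma adjusted p = 0.00737 and 0.00581), and Daam1, a formin that binds Dishevelled, by 0.58 (limma adjusted p = 0.023). Plcb1 and Prickle1 are among the genes that passed the filter through 1 genotype, and with the filter on the mean their adjusted p was 0.00662 and 0.00369. The planar polarity genes Prickle1 and Vangl2 fell by 0.65 and 0.40 and the kinase gene Camk2d by 0.49 (limma adjusted p = 0.00318, 0.0382 and 0.00559).

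Of 25 genes described as WNT targets in other tissues, 14 were tested, with 5 higher and 2 lower (median 0.19). Fosl1, a subunit of AP-1, averaged 21.3 ± 0.9 FPKM in the knockout and 7.38 ± 1.41 FPKM in WT (log2 difference 1.42, limma adjusted p = 0.000405). Id2, an inhibitor of helix-loop-helix factors, averaged 7.97 ± 0.85 FPKM in the knockout and 2.56 ± 0.14 FPKM in WT (1.33, limma adjusted p = 0.00017). Twist1, a mesenchymal transcription factor that is also in the stromal marker list, rose by 0.69 (limma adjusted p = 0.00134). Ephb3, an ephrin receptor, and Vegfa, an angiogenic factor, fell by 0.91 and 0.28 (limma adjusted p = 0.000349 and 0.026). Myc averaged 33.7 ± 1.1 FPKM in the knockout and 27.9 ± 2.9 FPKM in WT and did not pass (limma adjusted p = 0.0871), and Sp5 and T were at 0 in all 6 libraries. The 19.6% of all tested genes called in either direction is the measure against which these list counts stand.

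**Figure D5:**
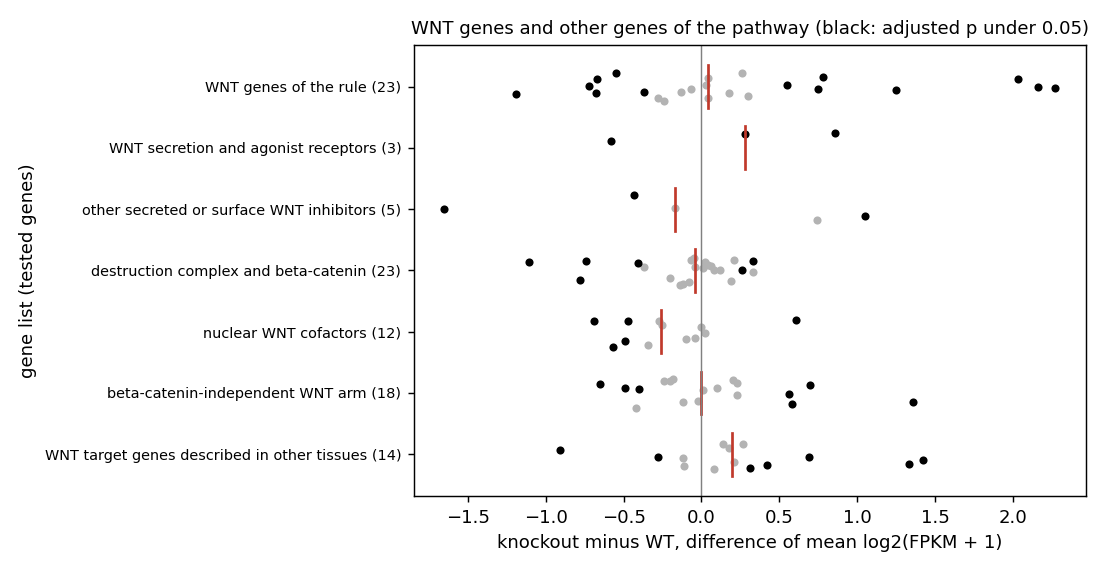
Difference of the mean log2(FPKM + 1), knockout minus WT, of every tested gene (points) in the WNT genes chosen by symbol and in 6 further lists of the pathway, with the number tested in brackets; black points passed limma at an adjusted p under 0.05 and red lines are medians. The WNT genes spread from -1.19 to 2.27, whereas the 23 destruction complex genes have a median of -0.04 and most of their points, 17, are grey.

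Markers of the lineages that marrow stroma can enter were measured in the same libraries. Alpl, Col2a1 and S100a8 passed the filter through the knockout alone and so had to differ. With the filter on the mean their limma adjusted p was 0.000264, 3.91e-06 and 0.00166. Of the osteoblast lineage markers, 2 of 5 were tested and both were higher in the knockout, beside 10.4% higher of all tested genes. Runx2, the transcription factor required for osteoblasts, averaged 5.69 ± 0.47 FPKM in the knockout and 3.29 ± 0.15 FPKM in WT (limma adjusted p = 0.00224). Alpl, the bone alkaline phosphatase, averaged 1.42 ± 0.08 FPKM in the knockout and 0.133 ± 0.032 FPKM in WT (limma adjusted p = 0.000216). Sp7, Bglap and Ibsp were below the filter and not tested. Sp7 averaged 0.337 FPKM in the knockout and 0.007 FPKM in WT. Bglap and Ibsp overlapped between the genotypes, at 0.053 and 0.037 FPKM in the knockout and 0.063 and 0 FPKM in WT. Of the chondrocyte markers, 2 of 5 were tested: Col2a1, the cartilage collagen, was higher at 14.0 ± 0.6 FPKM in the knockout and 0.28 ± 0.09 FPKM in WT (limma adjusted p = 3.18e-06), and Sox9, the cartilage transcription factor, was lower at 1.02 ± 0.16 FPKM in the knockout and 2.74 ± 0.29 FPKM in WT (limma adjusted p = 0.00135). No adipocyte marker reached the filter, so none was tested. Pparg had 1.26, 0.88 and 1.3 FPKM in the knockout libraries and 0.38, 0.67 and 0.35 FPKM in the WT libraries. Fabp4 averaged 0.803 ± 0.215 FPKM in the knockout and 0.513 ± 0.091 FPKM in WT. Lpl was lower, at 0.347 ± 0.031 FPKM in the knockout and 0.77 ± 0.087 FPKM in WT. Pparg, Fabp4 and Lpl did not overlap between the genotypes. Of the tested genes, all past the filter, 36.7% did not overlap, which is no direct measure for genes below it. Adipoq and Plin1 were at 0 in all 6 libraries. Of the endothelial, lymphoid and erythroid markers none reached the filter, with summed levels of at most 0.27 FPKM in the knockout and 0.69 FPKM in WT, and Cd3e and Ms4a1 were at 0 in all 6 libraries. Of the granulocyte markers only S100a8 was tested, and it was higher (4.5 ± 1.42 FPKM in the knockout, 0.783 ± 0.176 FPKM in WT, limma adjusted p = 0.00142). The others did not share this difference. Ly6g averaged 0.163 FPKM in the knockout and 0.22 FPKM in WT, and S100a9 0 FPKM in the knockout and 0.037 FPKM in WT. Mpo averaged 0.03 FPKM in the knockout and 0 FPKM in WT, each of them with overlap, and Elane was at 0.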

How the data were processed

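The authors deposited FPKM values, per the file headers, with estimated counts for the same 55401 genes and 6 libraries. Per the submitters' processing notes they used cutadapt 1.9, HISAT2 2.0.4 and StringTie 1.3.4d on GRCm38; per the labels' protocols, mRNA was selected with oligo(dT) and the second strand was marked with dUTP. Neither the annotation release nor the use of strand in counting is given in the sources used here. Hence overlapping genes and close paralogues cannot be separated with certainty. The deposited counts are estimates: over 5837 genes, the ratio of count to FPKM followed 1 factor per library within 1% in 100% of comparisons, and 44.4% of counts up to 16 were multiples of 4. About 4 estimated counts thus stand for a fragment, and floors cover counting error only.

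For that reason the tests ran in R 4.3.3 with limma 3.58.1 (intensity trend, two-sided) on log2(FPKM + 1), for genes of at least 1 FPKM in at least 3 of 6 libraries, with Benjamini-Hochberg adjustment over all tested genes. The estimated counts were tested with edgeR 4.0.16 (quasi-likelihood, TMM) and DESeq2 1.42.0 as alternatives; edgeR values are given for members below the filter. The script was tested on simulated data.

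Named were Nlrp3; every member past the filter; members below it with a mean of at least 100 estimated counts in either genotype; the others by range; and, of each further list, up to 3 called genes in each direction. Frzb, Ctnnb1 and Myc, like Wnt4, Dkk1 and the genes of the closing section, were named outside this rule after their values were seen. The same holds for Cd44, Itgb1, Vim, Pparg, Fabp4, Lpl, Sp7, Bglap, Ibsp, Ly6g, S100a9, Mpo, Lgr5, Rspo4 and Ndp. The members and lists were chosen with earlier results of these data known. Coordinates come from the deposited table; 90.9% of the 55 members start and end at the same bases in GENCODE M21.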

Additional observations from a re-analysis of the deposited data

How the results depend on the processing

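No WNT gene changed direction in any call. Over 33 named WNT genes and their alternatives, 415 of 433 values kept their side of the threshold, 17 lost it (Wnt4, Znrf3, Ror1 and Rspo3, as given above; Znrf3 also without a filter on FPKM, adjusted p = 0.0906) and 1 gained it (Fzd1). The edgeR runs without single libraries for low members, and all alternatives for Wnt4 and Dkk1, were chosen after seeing the data. The 7 WNT genes called higher became 12 without a filter on FPKM and 11 with edgeR, with edgeR on counts divided by 4 and with DESeq2, which also test low genes. Wnt4 and Dkk1 were too low to be tested with counts divided by 4, and the 11 there include a WNT gene outside the 33. Over all genes, 1353 were higher without a filter on FPKM, 1483 with edgeR and 1512 with counts divided by 4, against 1264 in the main test. Without single libraries the WNT genes called higher were 6 to 7, and the 6 called lower were 6 to 7. Among all genes, 868 to 1685 were called higher and 721 to 1314 lower without single libraries (721 without WT replicate 1), and DESeq2 called 1807 and 1675. Further pathway genes ranged from 9 to 18 higher and from 10 to 15 lower in the same runs.

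The titles give both genotypes the numbers Day1 to Day3 without saying whether a day was shared. With 3 libraries per genotype, the data cannot decide whether they are paired. Deviations of same-numbered libraries correlated at 0.02, 0.168 and 0.096, and those of differently numbered libraries at -0.171 to 0.081. Of the 6 libraries, 4 correlated best with their own number. A replicate block left 7 WNT genes higher and 6 lower, 13 and 13 further pathway genes, and 1106 and 980 genes in all. Depth limits the low members most: at 13.3 M fragments or more, genes near 0.1 FPKM rest on a few fragments each.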

Other observations

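Some genes of the further pathway lists had low or uneven values, and they are named after their values were seen. Lgr6, an R-spondin receptor, had 0.7, 0.8 and 0.73 FPKM in the knockout libraries and 0.17, 0.25 and 0.2 FPKM in the WT libraries. Notum, a secreted enzyme that strips WNT ligands of their lipid, had 0.51, 0.47 and 0.4 FPKM in the knockout libraries and 0.12, 0.06 and 0 FPKM in the WT libraries. Gpc3, a cell surface proteoglycan, was the reverse, at 0.1, 0 and 0.06 FPKM in the knockout libraries and 0.55, 0.65 and 0.61 FPKM in the WT libraries. These 3 genes were below the filter and not tested, and their values did not overlap between the genotypes. Of the tested genes 36.7% did not overlap, but these lie past the filter, so the share is no direct measure for low genes. Tpbg, a membrane protein that dampens canonical signalling in zebrafish, had 5.96, 5.91 and 6.12 FPKM in the knockout libraries and 7.62, 1.92 and 1.93 FPKM in the WT libraries, where replicate 1 stood far above the rest of its genotype, and it did not pass the test (log2 difference 0.74, limma adjusted p = 0.283).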
